A study of Homo sapiens with 18 samples.

Results

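The insulin-like growth factor binding proteins are the family of secreted carriers encoded by IGFBP1 to IGFBP7. All 7 genes were found by symbol among the 40916 gene symbols that each of 18 count tables listed. The tables hold polyadenylated RNA from cultured human cells in 6 groups of 3 libraries, described as biological replicates. MCF10A, a mammary epithelial line that is not transformed, carried H2B-GFP (a histone fused to a fluorescent protein) and was described as grown with horse serum, EGF, hydrocortisone, cholera toxin and insulin. HCT116, from a colorectal carcinoma, carried no label, and was described as grown in McCoy's 5A with fetal bovine serum. Mixed cultures combined the lines at 50% each, and their medium is not given in the sources used here. Every culture type was either not irradiated (NIR) or given 10 Gy (IR). The harvest was at day 2 according to the titles of the samples, whereas the text of the series gives 72 h after irradiation. Line and medium cannot be told apart in any comparison of the monocultures.

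The libraries held 25737818 to 40839835 counts, and mitochondrially encoded genes took 5.10% to 12.7% of them. That share was higher after 10 Gy in every culture type without overlap of libraries, at 5.10% to 5.32% (NIR) and 6.06% to 6.35% (IR) in MCF10A, 8.42% to 8.75% and 11.5% to 12.3% in HCT116, and 8.37% to 8.73% and 12.0% to 12.7% in the mixed cultures. With totals that leave these genes out, IGFBP2 in HCT116 was at 108.8 (NIR) and 82.3 (IR) CPM and IGFBP6 at 15.6 (NIR) and 48.9 (IR) CPM. Levels are given in CPM, the unit in which a gene's counts are divided by its library's total, so that 1 count was worth 0.0245 to 0.0389 CPM. CDKN1A, a cell-cycle inhibitor induced by DNA damage, rose after 10 Gy in both lines, by 1.76 (MCF10A) and 2.33 (HCT116) on the log2 scale. Of 8 basal mammary markers, 7 were higher in MCF10A NIR than in HCT116 NIR without overlap of libraries, and the exception was CDH3. Of 8 intestinal markers, 6 were higher in HCT116 NIR without overlap. EPCAM and KRT19 were abundant there, while VIL1, CDH17, GPA33, LGR5 and ASCL2 stayed under 1 CPM on average.

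IGF binding proteins hold IGF1 and IGF2 outside the cell, which prolongs the life of these ligands and limits their access to the IGF1 receptor. Proteases such as PAPPA cut the binding proteins and release the ligand. Several members also act on cells without IGF, and IGFBP3 and IGFBP7 are known as products of senescent cells.

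The genes lie on 5 chromosomes (GRCh38, GENCODE release 29), and 4 of them form neighbouring pairs. IGFBP1 (chr7:45888357-45893668, plus strand) and IGFBP3 (chr7:45912245-45921874, minus strand) are 18.6 kb apart, and IGFBP2 (chr2:216632828-216664436, plus strand) and IGFBP5 (chr2:216672105-216695525, minus strand) are 7.67 kb apart. No other annotated gene lies wholly inside either gap. IGFBP4 (chr17:40443461-40457731, plus strand), IGFBP6 (chr12:53097436-53102345, plus strand) and IGFBP7 (chr4:57030773-57110385, minus strand) stand alone. All 7 are protein-coding. IGFBP7 overlaps 3 annotated genes on the opposite strand (POLR2B, UBE2CP3 and IGFBP7-AS1), and IGFBP5 overlaps 1 antisense gene. Whether strand was used in counting is not given in the sources used here, so reads from such partners cannot be told apart. IGFBP7-AS1 itself had 0 to 7 counts in a library.

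Promoter windows, the 250 bases before an annotated start, were available for 5 members from RefSeq (GRCh38.p14). Those of IGFBP2, IGFBP3 and IGFBP4 are shown because these members separated the lines or the treatments in different ways. The window of IGFBP6 lies mostly in an annotated untranslated region, at 231 of 250 bases, and is not shown, nor is that of IGFBP5. Capitals mark matches, on either strand, to the GC-box letters GGGCGG and the TATA-box letters TATANA.
IGFBP2 (chr2:216633170-216633419, plus strand): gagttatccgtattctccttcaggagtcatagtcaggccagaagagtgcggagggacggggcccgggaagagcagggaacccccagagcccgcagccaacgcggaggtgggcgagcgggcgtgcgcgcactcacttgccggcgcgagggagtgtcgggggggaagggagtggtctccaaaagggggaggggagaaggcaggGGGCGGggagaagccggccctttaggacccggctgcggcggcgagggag
IGFBP3 (chr7:45921273-45921522, minus strand): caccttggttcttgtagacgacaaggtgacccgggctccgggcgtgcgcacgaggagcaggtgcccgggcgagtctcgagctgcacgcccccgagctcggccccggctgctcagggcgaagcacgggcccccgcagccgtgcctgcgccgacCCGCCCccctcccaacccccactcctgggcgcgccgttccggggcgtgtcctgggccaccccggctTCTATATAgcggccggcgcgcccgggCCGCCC
IGFBP4 (chr17:40443200-40443449, plus strand): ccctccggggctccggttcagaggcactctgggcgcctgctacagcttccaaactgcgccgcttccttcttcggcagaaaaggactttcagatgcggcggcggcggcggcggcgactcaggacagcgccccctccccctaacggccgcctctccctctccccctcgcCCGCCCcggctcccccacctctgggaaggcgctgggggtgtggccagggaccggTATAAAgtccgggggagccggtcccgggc
The IGFBP3 window held 2 overlapping TATANA matches, which begin 32 and 30 bases before the start, and the IGFBP4 window held 1 that begins 29 bases before it. The IGFBP2 window shown had a GGGCGG match and no TATANA match. Of 35116 RefSeq windows of this length, 17.7% held TATANA and 42.6% held GGGCGG. Letters of an E-box, an AP-1 site, a FOXO core and a partial p53 element were also searched, with no match in the windows shown. Another IGFBP2 window matched the p53 letters and that of IGFBP6 the FOXO letters, which 5.57% and 2.98% of all windows held. RefSeq lists 3 windows for IGFBP2, and the one shown lies inside the GENCODE span of the gene. The IGFBP3 window likewise lies inside the GENCODE span of IGFBP3. G and C made up 76.0% of the IGFBP3 window, 71.6% of that of IGFBP4 and 69.2% of the IGFBP2 window shown, while the other windows of IGFBP2 were at 56.8% and 56.4%, against a median of 58.0% over all windows.

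Each comparison was tested with edgeR's quasi-likelihood test over all genes that passed its expression filter, and a gene was called at a Benjamini-Hochberg adjusted p under 0.05. The filter left 4 or 5 of the 7 members in each comparison, and IGFBP1 passed in none. In MCF10A, 3 of 5 tested members rose after 10 Gy and 0 fell, where 55.4% of all genes tested were called, 26.2% higher and 29.2% lower. In HCT116, 1 of 4 tested members rose and 1 fell, where 52.5% of all genes were called, 25.3% higher and 27.2% lower. In the mixed cultures 2 of 5 rose and 1 fell, where 49.4% of all genes were called, 24% higher and 25.4% lower. All 5 members tested between the NIR lines were called, 2 higher and 3 lower in HCT116, beside 74.8% of all genes (38.7% higher and 36.1% lower). Between the IR lines 1 of 5 was higher and 3 were lower in HCT116, beside 74.9% of all genes (38.1% higher and 36.8% lower). The HCT116 response was above that of MCF10A for 1 of 5 members and below it for 2, beside 37.3% of all genes (15.4% above and 21.9% below). Mixed IR was higher than HCT116 IR in 1 of 5 members and lower in 0, beside 8.56% of all genes (5.08% higher and 3.48% lower). Another scaling, by upper-quartile factors, moved the share of called genes that were higher from 47.4% to 57.5% for MCF10A IR against NIR and from 51.8% to 62.4% for HCT116 NIR against MCF10A NIR. With counts this small, the shares of members called are given beside those of all genes only as a description.

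**Figure D1:**
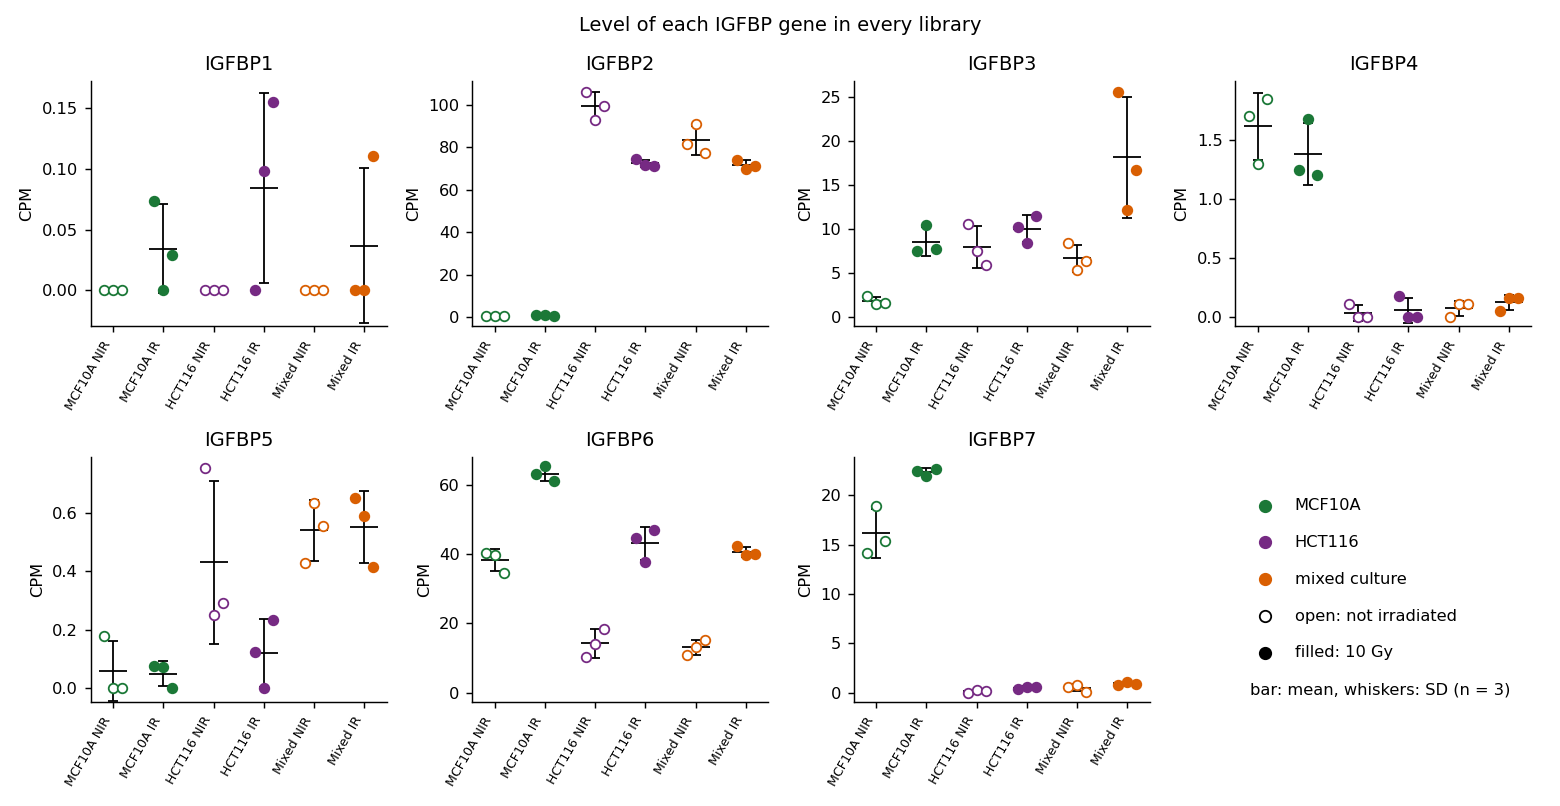
CPM of each IGFBP gene in all 18 libraries, 1 panel per gene with its own linear axis; points are libraries (open NIR, filled IR), bars are group means and whiskers SD (n = 3). IGFBP2 stands high in HCT116 and mixed libraries, IGFBP4 and IGFBP7 in MCF10A, and the filled points of IGFBP6 lie above the open ones in every culture type.

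IGFBP6 binds IGF2 more tightly than IGF1 and is the member that rose after irradiation in every culture type. In MCF10A the NIR libraries were at 40.4, 39.8 and 34.6 CPM and the IR libraries at 63.1, 65.3 and 61.2 CPM. All IR libraries lay above all NIR libraries. The log2 fold change was 0.70 (SE 0.068, adjusted p = 8.6e-10, edgeR), a ratio of means of 1.65. HCT116 NIR libraries were at 10.2, 14.0 and 18.5 CPM and IR libraries at 44.7, 37.7 and 46.8 CPM. The lowest IR library was again above the highest NIR library, with a log2 fold change of 1.61 (SE 0.140, adjusted p = 1.3e-09, edgeR). The mixed libraries went from 10.8, 13.1 and 15.2 CPM to 42.3, 39.7 and 39.9 CPM. Their log2 fold change of 1.61 (SE 0.103, adjusted p = 3.9e-11, edgeR) was within 0.0107 of that of HCT116 in the test of the difference (SE 0.197, adjusted p = 0.991, edgeR).

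The rise of IGFBP6 was larger in HCT116 than in MCF10A, with a difference of log2 fold changes of 0.83 (SE 0.175, adjusted p = 0.00044, edgeR). It began from a lower level, since HCT116 NIR stood below MCF10A NIR with a log2 fold change of -1.63 (SE 0.150, adjusted p = 1.8e-08, edgeR) with no overlap. After irradiation HCT116 was still lower, with a log2 fold change of -0.79 against MCF10A (SE 0.074, adjusted p = 3.9e-10, edgeR). The order of group means was MCF10A IR, HCT116 IR, mixed IR, MCF10A NIR, HCT116 NIR and mixed NIR. HCT116 IR, mixed IR and MCF10A NIR overlapped from each neighbour to the next, as did HCT116 NIR and mixed NIR.

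IGFBP3, which carries most IGF in the blood, rose in MCF10A and in the mixed cultures. MCF10A libraries were at 2.35, 1.52 and 1.57 CPM without irradiation and at 7.50, 10.4 and 7.70 CPM after it. The groups did not overlap, the ratio of means was 4.71 and the log2 fold change was 2.21 (SE 0.203, adjusted p = 3.0e-10, edgeR). HCT116 libraries were at 10.6, 7.46 and 5.94 CPM (NIR) and at 10.3, 8.47 and 11.5 CPM (IR). These ranges overlapped, and the log2 fold change of 0.33 was not called (SE 0.172, adjusted p = 0.113, edgeR). Without HCT116 NIR replicate 1, the highest NIR library, it was 0.58 (adjusted p = 0.0060). The difference of log2 fold changes, HCT116 minus MCF10A, was -1.95 (SE 0.294, adjusted p = 7.8e-06, edgeR).

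Before irradiation the HCT116 libraries held more IGFBP3 than those of MCF10A, by 1.94 on the log2 scale (SE 0.247, adjusted p = 1.3e-06, edgeR). After irradiation the lines overlapped, with a log2 fold change of 0.0013 (SE 0.155, adjusted p = 0.995, edgeR).

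In the mixed cultures IGFBP3 went from 8.37, 5.31 and 6.37 CPM (NIR) to 25.6, 12.2 and 16.7 CPM (IR). Every IR library exceeded every NIR library, and the log2 fold change was 1.43 (SE 0.201, adjusted p = 4.7e-06, edgeR). The spread among the IR libraries was wide, with an SD of 6.85 CPM about a mean of 18.2 CPM, and replicate 1 was the highest. All 3 mixed IR libraries also lay above the 3 HCT116 IR libraries, by 0.85 on the log2 scale (SE 0.169, adjusted p = 0.0011, edgeR). DESeq2 did not call this difference, at 0.84 (adjusted p = 0.091). Without mixed IR replicate 1 the edgeR value was 0.51 and still called (adjusted p = 0.023). The difference of responses, mixed minus HCT116, was 1.11 and was not called (SE 0.301, adjusted p = 0.082, edgeR), although it was called with no filter on low counts (adjusted p = 7.3e-06).

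**Figure D2:**
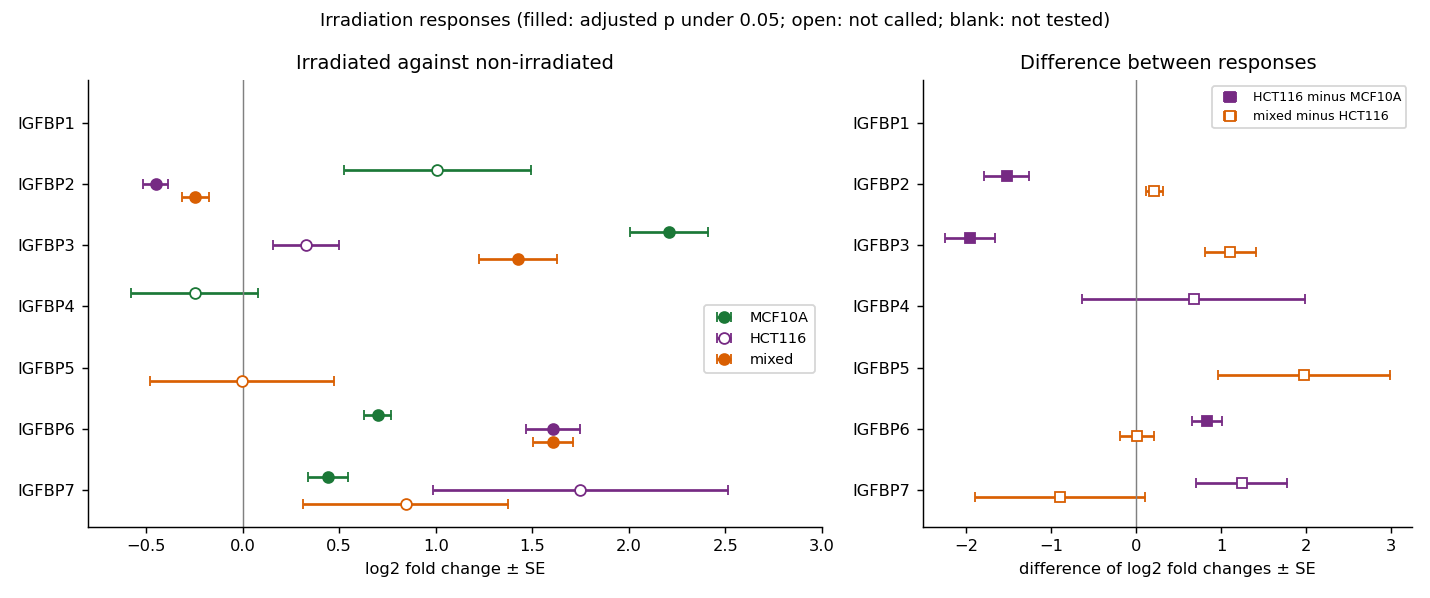
Left, log2 fold changes of IR against NIR with SE for each tested member in MCF10A, HCT116 and mixed cultures; right, differences between these responses with SE. Filled symbols have an adjusted p under 0.05: IGFBP6 is filled and to the right of 0 in all 3 culture types, and IGFBP2 and IGFBP3 lie left of 0 for HCT116 minus MCF10A.

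IGFBP2, a binding protein with an integrin-binding motif, was far higher in HCT116 than in MCF10A. HCT116 NIR libraries were at 105.9, 92.9 and 99.5 CPM, whereas those of MCF10A NIR were at 0.353, 0.451 and 0.410 CPM. The log2 fold change was 7.73 (SE 0.128, adjusted p = 7.6e-19, edgeR). After irradiation the HCT116 libraries were at 74.3, 71.6 and 71.3 CPM, all below the NIR libraries. IGFBP2 fell there by 0.45 on the log2 scale (SE 0.066, adjusted p = 3.9e-06, edgeR). In the mixed cultures it fell from 81.7, 90.9 and 77.5 CPM to 74.1, 69.6 and 71.2 CPM, by 0.25 on the log2 scale (SE 0.069, adjusted p = 0.0056, edgeR). This call was lost without mixed NIR replicate 2, the highest library, where the log2 fold change was -0.18 (adjusted p = 0.051).

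In MCF10A the few IGFBP2 counts went up, from 40 summed over the NIR libraries to 73 over the IR libraries. The IR libraries were at 1.03, 0.766 and 0.706 CPM, above the NIR libraries. The log2 fold change of 1.01 was not called (SE 0.483, adjusted p = 0.079, edgeR), and it was called when all 18 libraries shared 1 fit (adjusted p = 0.0022). The responses of the lines differed by -1.52 for HCT116 minus MCF10A (SE 0.264, adjusted p = 4.8e-05, edgeR). That SE is below the 0.483 of the MCF10A change alone, as the fit of the difference uses 1 measure of spread per gene for both lines. The call at the few MCF10A counts therefore rests partly on the spread in HCT116. The order of group means was HCT116 NIR, mixed NIR, HCT116 IR, mixed IR, MCF10A IR and MCF10A NIR, and of the neighbours in this order HCT116 IR and mixed IR overlapped.

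IGFBP7, a relative with low affinity for IGF and a heparin-binding secreted protein, was an MCF10A transcript in these libraries. MCF10A NIR libraries were at 14.2, 19.0 and 15.4 CPM and IR libraries at 22.5, 21.9 and 22.7 CPM. The IR libraries all lay above the NIR libraries, with a log2 fold change of 0.44 (SE 0.104, adjusted p = 0.00062, edgeR). The call was lost when all 18 libraries shared 1 fit (log2 fold change 0.44, adjusted p = 0.096). HCT116 held 0, 10 and 4 counts in the NIR libraries and 11, 25 and 15 in the IR libraries. As levels these were 0 to 0.311 CPM and 0.335 to 0.612 CPM, which did not overlap. The log2 fold change in HCT116 was 1.75 and was not called (SE 0.763, adjusted p = 0.059, edgeR). It ran from 1.13 to 2.86 when 1 library was left out, and was called without HCT116 NIR replicate 2 (2.86, adjusted p = 0.031). The responses of the lines differed by 1.24 for HCT116 minus MCF10A, which was not called (SE 0.539, adjusted p = 0.073, edgeR) but was called by DESeq2 (1.30, adjusted p = 0.020). It was 0.60 without HCT116 NIR replicate 1 (adjusted p = 0.358) and 2.39 without HCT116 NIR replicate 2 (adjusted p = 0.0082), and it was also called without HCT116 IR replicate 1 (1.47, adjusted p = 0.041) and with no filter on low counts (1.35, adjusted p = 0.017). The lines differed by -6.93 (NIR, adjusted p = 3.0e-12) and by -5.67 (IR, adjusted p = 6.2e-20) for HCT116 against MCF10A (edgeR).

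IGFBP4, which binds IGF without enhancing its action and is the main substrate of PAPPA, was low and likewise on the MCF10A side. It was at 1.71, 1.30 and 1.84 CPM in MCF10A NIR and at 1.25, 1.68 and 1.21 CPM in MCF10A IR. These overlapped, and the log2 fold change was -0.25 (SE 0.326, adjusted p = 0.540, edgeR). In each HCT116 group 1 library held all the counts, 4 over the NIR and 6 over the IR libraries. For HCT116 against MCF10A the log2 fold change was -5.33 (NIR, adjusted p = 2.6e-06) and -4.63 (IR, adjusted p = 2.9e-06, edgeR). Without the single HCT116 library that held counts, these values were -8.75 and -8.53.

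IGFBP5, a matrix-bound member also cut by PAPPA and HTRA1, and IGFBP1, the insulin-suppressed member best known from liver, were near the limit of detection. IGFBP5 had 0 to 6 counts in each MCF10A library. HCT116 held 26, 8 and 8 counts (NIR) and 4, 0 and 6 counts (IR), while the mixed libraries held 12, 22 and 20 counts (NIR) and 23, 22 and 15 counts (IR). Mixed IR thus stood at 0.414 to 0.652 CPM and HCT116 IR at 0 to 0.233 CPM, without overlap. The log2 fold change of 2.32 was not called (SE 0.756, adjusted p = 0.053, edgeR), and it was called without HCT116 IR replicate 3 (3.21, adjusted p = 0.049). IGFBP5 in HCT116 went from 0.430 ± 0.280 to 0.118 ± 0.117 CPM (SD, n = 3) and did not pass the filter in that comparison.

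IGFBP1 had no count in any of the 9 NIR libraries. A count of 0 allows up to 3 counts per library, which is 0.0735 to 0.117 CPM over the 18 libraries, and this limit covers counting error only. Low counts were mostly even, and if both reads of a fragment were counted one by one, the limit would be higher. The IR libraries held 2, 0 and 1 counts in MCF10A, 0, 4 and 4 in HCT116 and 0, 0 and 4 in the mixed cultures. A difference at these levels was not detectable at this depth.

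As a family, the summed level of the 7 genes went from 58.4 ± 4.16 CPM in MCF10A NIR to 96.4 ± 3.41 CPM in MCF10A IR. In HCT116 it was 122.3 ± 6.59 and 126.3 ± 6.75 CPM, and in the mixed cultures 104.2 ± 5.88 and 132.1 ± 10.4 CPM (SD, n = 3 each). The HCT116 sums overlapped between treatments, and those of MCF10A and of the mixed cultures did not. IGFBP2 took 81.3% ± 1.56 of the sum in HCT116 NIR and 57.4% ± 2.90 in HCT116 IR, while IGFBP6 went from 11.7% ± 3.45 to 34.0% ± 2.03. In MCF10A the share of IGFBP6 stayed at 65.6% ± 2.35 (NIR) and 65.6% ± 0.455 (IR), and IGFBP3 went from 3.11% ± 0.780 to 8.83% ± 1.38. Longer transcripts give more counts, so these shares compare groups, not genes. Per kilobase of annotated exon, IGFBP6 was the highest member in MCF10A, at 28.5 (NIR) and 46.9 (IR) CPM per kb. In HCT116 NIR, IGFBP2 was at 20.9 and IGFBP6 at 10.6 CPM per kb, and in HCT116 IR they were at 15.2 and 32.0 CPM per kb.

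**Figure D3:**
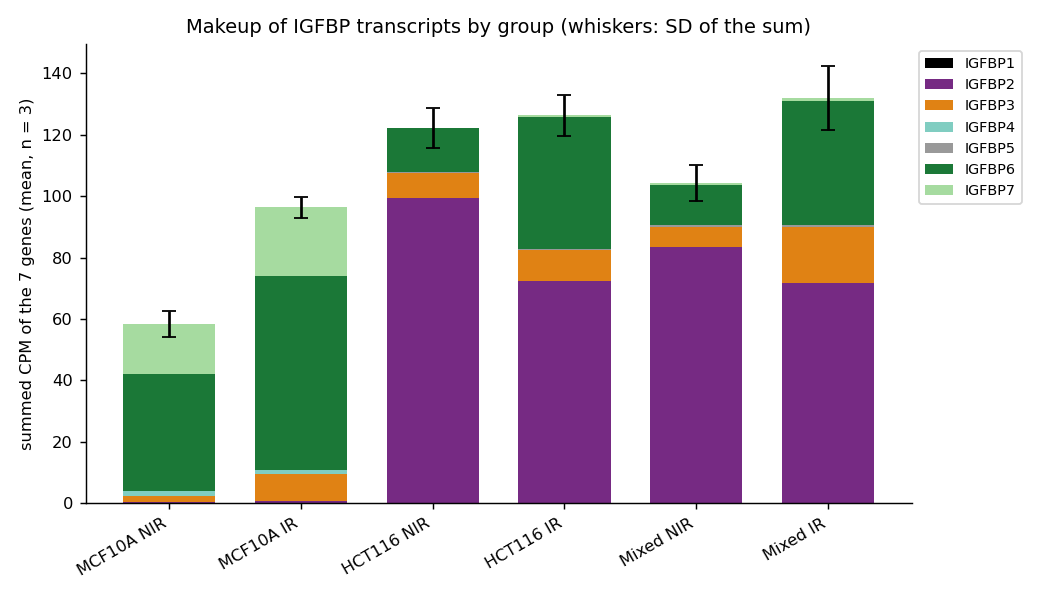
Stacked bars of mean CPM of the 7 IGFBP genes in each group, starting at 0; whiskers are the SD of the sum (n = 3). In the HCT116 and mixed bars the IGFBP2 segment shrinks and the IGFBP6 segment grows after 10 Gy, while the MCF10A bars grow in IGFBP6, IGFBP7 and IGFBP3.

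The mixed libraries were also set against the monocultures at their estimated makeup. Shares of RNA were estimated from line-specific genes (at least 20 CPM in 1 line, with all libraries of the other line below 1 CPM). For MCF10A the estimates were 0.498%, 0.368% and 0.395% in the NIR mixtures and 1.24%, 1.17% and 1.27% in the IR mixtures. Levels of these genes in the other line were not subtracted, so the MCF10A shares may be too high. Fewer cells of a line, less RNA per cell and any selection of cells before extraction cannot be told apart in these counts. The summed level of the 8 basal mammary markers was 263 to 274 CPM in mixed NIR against 257 to 270 CPM in HCT116 NIR, and 458 to 520 CPM in mixed IR against 328 to 351 CPM in HCT116 IR. CDH3, the marker that was higher in HCT116 NIR than in MCF10A NIR, made up 196.3 ± 7.14 CPM of the sum in HCT116 NIR and 159.8 ± 1.72 CPM in mixed NIR (SD, n = 3). The other 7 markers, a set taken after these values were seen, summed to 104.2 to 112.6 CPM in mixed NIR against 66.8 to 68.5 CPM in HCT116 NIR, and to 215.6 to 262.3 CPM in mixed IR against 62.1 to 73.4 CPM in HCT116 IR. TP63, a defining marker, had no counts in HCT116 NIR and was at 0.882 ± 0.352 CPM in mixed NIR (SD, n = 3).

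At these shares the monocultures would give 99.0 CPM of IGFBP2 in the NIR mixtures, where 83.4 ± 6.85 CPM were measured, and 71.5 CPM in the IR mixtures, where 71.6 ± 2.29 CPM were measured (SD, n = 3). For IGFBP6 the sums were 14.4 and 43.3 CPM, and the measured levels 13.0 ± 2.17 and 40.6 ± 1.46 CPM. IGFBP3 was at 0.839 of its sum without irradiation and at 1.81 times its sum after it. That excess was 8.11 CPM, while the MCF10A part of the sum was 0.105 CPM. Without mixed IR replicate 1 the excess was 4.38 CPM, or a level of 1.44 times the sum. IGFBP5 in the IR mixtures was at 4.69 times its sum of 0.117 CPM, which rests on 10 counts in HCT116 IR. The ratio was 3.13 without HCT116 IR replicate 2 and 9.07 without HCT116 IR replicate 3. IGFBP7 was at 0.519 ± 0.371 CPM in the NIR and 0.942 ± 0.167 CPM in the IR mixtures, against sums of 0.219 and 0.778 CPM. The MCF10A parts of these sums, at the estimated shares, were 0.0680 and 0.274 CPM. The part of MCF10A RNA in the IGFBP4 and IGFBP7 values of the mixtures was not tested. In edgeR, mixed NIR and HCT116 NIR differed in 0 of 5 tested members, with 2 at an unadjusted p under 0.05 and 0 called by DESeq2, where 2.04% of all genes were called (0.887% higher and 1.15% lower). For the difference of responses, mixed minus HCT116, these counts were 0 of 5, 2 and 0, beside 0.83% of all genes (0.681% above and 0.149% below). These comparisons share the HCT116 libraries. IGFBP2 between mixed NIR and HCT116 NIR was 1 of those at an unadjusted p under 0.05. Its log2 fold change was -0.24 (adjusted p = 0.105, edgeR), and it was called with no filter on low counts (adjusted p = 0.047).

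**Figure D4:**
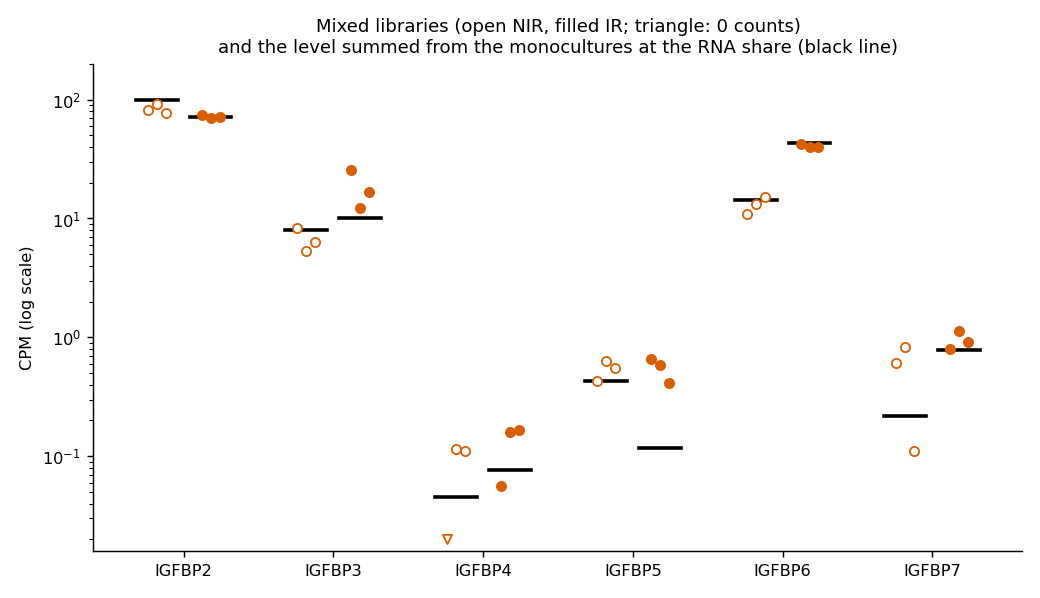
CPM on a log axis of IGFBP2 to IGFBP7 in the mixed libraries (open NIR, filled IR; a triangle marks 0 counts) and, as black lines, the level summed from the monocultures at the estimated RNA share. The 3 filled points of IGFBP3 and of IGFBP5 lie above their lines, and those of IGFBP2 and IGFBP6 lie close to theirs.

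The rest of the IGF pathway was read from a list of 32 genes, all present in the tables. In MCF10A 9 of 25 tested genes rose and 6 fell after 10 Gy, in HCT116 7 of 27 rose and 8 fell, and in the mixed cultures 11 of 27 rose and 6 fell. Thus 15 of 25, 15 of 27 and 17 of 27 tested genes were called, beside 55.4%, 52.5% and 49.4% of all genes. The median log2 fold changes of the list were 0.089, 0.088 and 0.17, beside 0.0035, 0.0072 and 0.012 for all genes tested. IGF2, the ligand that IGFBP6 prefers, was at 12.7 ± 3.00 CPM in HCT116 NIR and 14.8 ± 1.62 CPM in HCT116 IR. All 6 MCF10A libraries together held 1 count of it. IGF2 may share reads with overlapping transcripts of its locus, which was not examined here, so its level is uncertain. IGF1 was at most 0.137 CPM in any group mean, and INS had no counts.

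Among the receptors, IGF1R, which signals, and IGF2R, which clears IGF2, were both higher in MCF10A. IGF1R rose in MCF10A from 180.5 ± 3.98 to 213 ± 3.52 CPM (log2 fold change 0.22, adjusted p = 6.6e-05) and fell in HCT116 from 68.0 ± 5.60 to 49.5 ± 1.17 CPM (-0.45, adjusted p = 1.6e-05, edgeR). The difference between these responses was -0.75 (SE 0.079, adjusted p = 3.8e-08, edgeR). IGF2R rose in all 3 culture types, by 0.45, 0.39 and 0.31 on the log2 scale in MCF10A, HCT116 and mixed cultures. INSR, the insulin receptor, had log2 fold changes of -0.29, -0.83 and -0.69, all called. Of the adaptors, IRS2 fell in all 3 (-0.25, -0.72 and -0.37), while IRS1 rose in HCT116 by 0.39 and in the mixed cultures by 0.33 and was at -0.12 in MCF10A, where it was not called. SHC1, a docking protein of several growth factor receptors, rose by 0.64, 1.01 and 1.11. PIK3IP1, an inhibitor of PI3-kinase, rose by 1.77, 0.97 and 0.81.

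The proteases of the binding proteins and their inhibitors differed between the lines in both directions. HCT116 NIR was called lower than MCF10A NIR for PAPPA, STC1, STC2, ADAM12 and HTRA1 and higher for ADAM28 (log2 fold change 3.83), while ADAM9 was not called (0.09, adjusted p = 0.128, edgeR) and PAPPA2 did not pass the filter. PAPPA, which cuts IGFBP4 and IGFBP5, rose in MCF10A from 13.4 ± 0.160 to 19.6 ± 2.67 CPM and in HCT116 from 2.04 ± 1.26 to 7.00 ± 0.0787 CPM (SD, n = 3 each). Its log2 fold changes were 0.53, 1.76 and 1.38 in MCF10A, HCT116 and mixed cultures, all called, and the response was larger in HCT116 than in MCF10A by 1.14 (SE 0.288, adjusted p = 0.0024, edgeR). STC1, a secreted inhibitor of PAPPA, was at 46.5 ± 4.91 CPM in MCF10A NIR and 0.750 ± 0.173 CPM in HCT116 NIR. It rose in HCT116 by 1.20 and in the mixed cultures by 1.89, and was at 0.09 in MCF10A, where it was not called. STC2, the other such inhibitor, was called in none of the 3 irradiation comparisons. HTRA1, a protease of IGFBP5, was at 102 ± 6.15 CPM in MCF10A NIR, 0.039 ± 0.044 CPM in HCT116 NIR and 0.643 ± 0.175 CPM in mixed NIR. ADAM12, a protease of IGFBP3 and IGFBP5, fell in MCF10A by 0.42 on the log2 scale.

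**Figure D5:**
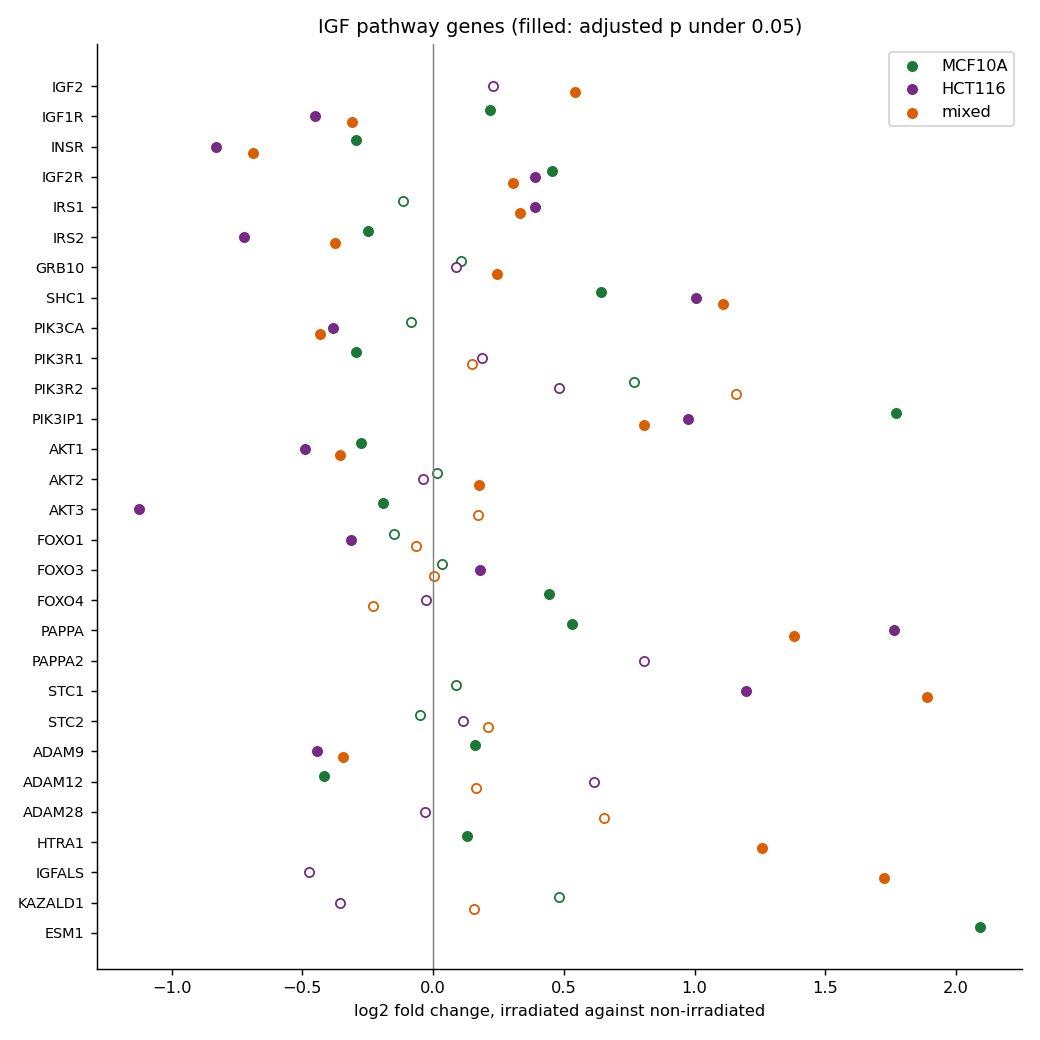
Log2 fold changes of IR against NIR for the IGF pathway genes tested in at least 1 culture type, with filled points at an adjusted p under 0.05. IGF2R, SHC1, PIK3IP1 and PAPPA are filled to the right of 0 in MCF10A, HCT116 and mixed cultures, and INSR, IRS2 and AKT1 to the left.

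Genes whose levels followed a member most closely over the 18 libraries were found among 15436 genes by Pearson r of log2(CPM + 0.5). These libraries share lines and treatments, so the values describe the pattern and carry no test. For IGFBP2 they were MTAP, GLIPR2 and ZIC5, each at r = 0.998 or 0.999, all low in MCF10A. IGFBP6 was followed by TNFRSF10B, a death receptor (r = 0.990), MXD4, a MYC antagonist (r = 0.982), and S100A6 (r = 0.980). The mean of TNFRSF10B was 245.6 (NIR) and 320.7 (IR) CPM in MCF10A, and 155.4 (NIR) and 279.7 (IR) CPM in HCT116. For IGFBP7 the closest were FAM83A, TGFBR2 and IL1A, with r between 0.991 and 0.994. IGFBP3 had lower values, at r = 0.941 for NRBP2, 0.934 for PIP5K1C and 0.933 for SFXN3.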

How the data were processed

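The deposited files hold raw counts per gene symbol, 1 table per library, with no normalization by the authors. The submitters' processing notes name fastp, STAR, featureCounts and GRCh38, without versions, and the labels name a stranded kit. Strand setting, annotation and mate counting are not given in the sources used here. Low counts were mostly even (68.3% of values from 1 to 10), so fits with counts halved were run. The members and lists were chosen with earlier results of these data known. All 7 members are named, pathway genes by role, and per member with at least 10 CPM in a group the 3 genes of highest r, the last among genes with at least 1 CPM in a group.

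Fits used edgeR 4.0.16 in R 4.3.3 (TMM, filterByExpr, quasi-likelihood, 2-sided, Benjamini-Hochberg over all genes tested) on the libraries of the compared groups. Those of MCF10A IR against NIR and of HCT116 minus MCF10A responses were also run on simulated counts. There 97% and 75% of 200 changed genes were recovered, and 2.02% and 3.23% of the calls were false. The simulation gave all genes the same spread and changed no genes of low counts, so it does not cover members with few counts. Each SE is the size of the fold change over the root of its F value. Levels are mean ± SD of 3 libraries. Alternatives were DESeq2 1.42.0, upper-quartile factors, no filter, halved counts, all 18 libraries in 1 fit, a replicate block and each library left out. P-values set each difference against the spread between these cultures only, which the fits estimate in part from all genes. Exon lengths came from GENCODE 29 and promoters from RefSeq. A genotype detail of HCT116 is not reported here.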

Additional observations from a re-analysis of the deposited data

Results flagged for a closer look

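The irradiation response differed between HCT116 and MCF10A for 3 of 5 tested members in the test of the difference itself (edgeR, 12 libraries). Of all genes tested, 37.3% were called in this comparison, 15.4% above and 21.9% below. IGFBP2 had a difference of log2 fold changes of -1.52, IGFBP3 one of -1.95 and IGFBP6 one of 0.83, each as HCT116 minus MCF10A. The median over all genes in this comparison was -0.10. IGFBP2 was higher in 3 of 3 MCF10A IR libraries than in all NIR libraries (0.833 ± 0.172 CPM, SD, n = 3), without being called, and was lower in 3 of 3 HCT116 IR libraries (72.4 ± 1.62 CPM). All 3 differences kept their direction and call in every alternative run, with ranges of -1.62 to -1.25, -2.19 to -1.68 and 0.63 to 1.07. Each of these fits uses 1 measure of spread per gene for both lines. Their agreement therefore does not test the IGFBP2 call at the few counts of MCF10A. Lines and media differ together here, so their parts cannot be told apart. The response of the mixed cultures was compared with the same HCT116 libraries.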

How the results depend on the processing

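Over the alternatives, 542 of 584 fold changes of members kept their direction and their side of the threshold, 17 became called, 3 lost their call and 22 changed sign, none of the last called in either fit. The numbers of members called stayed within 1.5 times in 111 of 120 alternatives. With so few members tested this is a loose measure, since a change from 2 to 3 called members still counts as within it. With no filter on low counts, 1 member was called for mixed NIR against HCT116 NIR and 1 for mixed minus HCT116 responses, where the main fits called 0. Mixed IR against HCT116 IR went from 1 called member to 0 with DESeq2. With 1 library left out it had 1 to 2, and mixed minus HCT116 responses had 0 to 1. Correlations of same-numbered deviations ran from -0.051 to 0.108, and in 0 of 15 pairs of groups were all above 0.1. For HCT116 NIR with mixed NIR they were 0.057, 0.0079 and 0.108. A replicate block raised the genes called higher and lower from 146 and 189 to 319 and 397 for mixed NIR against HCT116 NIR. For mixed IR against HCT116 IR it raised them from 871 and 596 to 1263 and 957. Every other comparison had fewer with it. Whether replicate numbers mark shared cultures is not stated by the labels and stays undecided here. With a replicate block, 1 member was called for mixed NIR against HCT116 NIR (IGFBP2), 2 for mixed IR against HCT116 IR (IGFBP3 and IGFBP5) and 1 for mixed minus HCT116 responses (IGFBP3, adjusted p = 0.025), and IGFBP7 in HCT116 was called (1.99, adjusted p = 0.040). Sign changes were near 0 except for IGFBP4, given below. IGFBP5 in the irradiated mixtures was at 0.032 with upper-quartile factors, 0.039 with counts halved, 0.040 in the fit of all libraries, and -0.15 to 0.16 with 1 library left out. IGFBP3 between the IR lines was at -0.0034 with no filter and -0.10 to 0.16 with 1 library left out. IGFBP6 was at -0.30 to 0.14 for mixed NIR against HCT116 NIR, and for mixed minus HCT116 responses at -0.014 with counts halved and -0.25 to 0.18 with 1 library left out. IGFBP2 between mixed IR and HCT116 IR was at 0.0047 in the fit of all libraries. IGFBP4 for HCT116 minus MCF10A responses ran from -3.26 to 4.10 with 1 library left out, resting on 1 HCT116 library per treatment. The IGFBP3 difference of mixed minus HCT116 responses was called without HCT116 NIR replicate 3 (adjusted p = 0.037) and without mixed IR replicate 2 (adjusted p = 0.029). The ratios of IGFBP3 and IGFBP5 in the IR mixtures to the monoculture sums, with 1 library left out, and the marker sum without CDH3 were chosen after seeing the data. With markers of at least 50 CPM, the estimated MCF10A share of RNA was 0.339% (NIR) and 1.03% (IR). Upper-quartile factors moved the median of all genes by 0.20 between the NIR lines and by 0.18 between the IR lines, with 62.4% and 60.2% of called genes higher in HCT116. The cause of each such change was not tested. The depth limits IGFBP1 and IGFBP5 throughout and IGFBP4 and IGFBP7 in HCT116.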
